A study of Homo sapiens with 12 samples.

Results

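The EGF receptor family was followed through 9 genes of the 19517 in the deposited table, chosen by symbol: the receptors EGFR, ERBB2 and ERBB3, the ligands AREG, EREG, HBEGF, TGFA and BTC, and the feedback inhibitor ERRFI1. RNA of 2 human breast cancer lines of the triple-negative class, MDA-MB-231 and HCC1937, both labelled wild type and epithelial, was sequenced as 12 libraries in 4 groups of 3. MDA-MB-231 controls (E1, E2 and E3) and MDA-MB-231 with 140 µg/mL of an aqueous extract of the medicinal plant Kalanchoe pinnata (E7, E8 and E9) were kept in DMEM. HCC1937 controls (E25, E26 and E27) and HCC1937 with 66 µg/mL of the extract (E31, E32 and E33) were kept in RPMI. Serum at 10% was common to all groups, as was the 72 h of culture, and the labels name no vehicle for the controls. Line, medium and dose therefore cannot be told apart in any comparison between the lines. Nothing in the labels says that replicates came from separate cultures, so the p-values rest on a spread among libraries that may be only technical.

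EGFR, ERBB2 and ERBB3 are receptor tyrosine kinases that signal as pairs. EGFR binds EGF, TGFA, AREG, EREG, HBEGF and BTC, whereas ERBB2 has no known ligand and ERBB3, which has little kinase activity of its own, binds neuregulins. The ligands are made as membrane-bound precursors and are released by metalloproteases. Paired receptors activate the RAS-MAPK and PI3K routes, and ERRFI1, itself induced by that signalling, binds the kinase domain and restrains it. EGFR is often abundant in triple-negative tumours, a class defined by absence of hormone receptors and of ERBB2 amplification.

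The labels were first set against transcripts of known loss or identity in these lines. CDKN2A, lost in MDA-MB-231, had no reads in any of that line's libraries and 155 to 168 CPM (read counts normalised for depth) in HCC1937 controls. The labels call both lines epithelial. MDA-MB-231 had no CDH1 or KRT5 reads and 3736 ± 91.9 CPM (SD, n = 3) of VIM in controls, while HCC1937 had 186 ± 5.34 CPM of CDH1 and 13.9 ± 0.834 CPM of VIM. ESR1 and PGR, the hormone receptors, averaged at most 7.19 and 2.88 CPM in any group.

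Library E7 stood apart from its group. Its mitochondrial share was 10.7%, against 4.63% and 4.78% in E8 and E9, and its rank correlation with them was at most 0.967, against at least 0.997 between replicates of the other groups. Of the 9 family members, 6 differed by more than 1.5-fold between E7 and the mean of E8 and E9. EGFR stood at 0.465 of that mean, ERBB2 at 0.498 and ERBB3 at 0.525, while BTC stood at 2.10 and AREG at 1.61 times it. Changes of the members in MDA-MB-231 are therefore given with and without E7. Library totals ran from 16170342 to 31337259 counts, and 3 counts in a single library corresponded to 0.0990 to 0.213 CPM.

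The sequence just upstream of the start site is shown for the 5 members whose RefSeq start (GRCh38.p14) leaves at least 200 bases outside the annotated gene. They are EREG, called lower with extract in both lines, its neighbour AREG, called in neither, HBEGF, called higher in both, and EGFR and ERRFI1, both lower in HCC1937. Each is written 5′ to 3′ on the gene's strand, and capitals mark the motifs searched on both strands.
EGFR, chr7:55018767-55019016 (+ strand): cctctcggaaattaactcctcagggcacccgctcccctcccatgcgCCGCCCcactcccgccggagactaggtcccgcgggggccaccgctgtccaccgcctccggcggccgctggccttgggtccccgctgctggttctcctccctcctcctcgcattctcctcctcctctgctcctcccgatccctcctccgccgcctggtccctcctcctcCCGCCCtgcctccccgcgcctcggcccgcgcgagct
AREG, chr4:74444886-74445133 (+ strand): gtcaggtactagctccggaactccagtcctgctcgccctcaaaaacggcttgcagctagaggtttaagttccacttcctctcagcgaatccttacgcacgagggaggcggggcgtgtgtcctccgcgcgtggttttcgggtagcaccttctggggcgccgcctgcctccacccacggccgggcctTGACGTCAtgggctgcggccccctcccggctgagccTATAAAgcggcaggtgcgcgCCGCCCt
EREG, chr4:74364895-74365142 (+ strand): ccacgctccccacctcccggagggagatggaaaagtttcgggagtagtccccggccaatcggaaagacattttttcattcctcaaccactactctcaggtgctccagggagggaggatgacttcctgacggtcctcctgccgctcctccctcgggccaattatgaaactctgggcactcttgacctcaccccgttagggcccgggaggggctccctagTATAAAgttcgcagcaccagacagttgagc
HBEGF, chr5:140346632-140346853 (- strand): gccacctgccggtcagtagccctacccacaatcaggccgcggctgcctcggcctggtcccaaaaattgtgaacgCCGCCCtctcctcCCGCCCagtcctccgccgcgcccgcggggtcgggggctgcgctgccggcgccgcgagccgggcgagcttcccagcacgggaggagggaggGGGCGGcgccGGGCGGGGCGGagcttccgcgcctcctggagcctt
ERRFI1, chr1:8026310-8026559 (- strand): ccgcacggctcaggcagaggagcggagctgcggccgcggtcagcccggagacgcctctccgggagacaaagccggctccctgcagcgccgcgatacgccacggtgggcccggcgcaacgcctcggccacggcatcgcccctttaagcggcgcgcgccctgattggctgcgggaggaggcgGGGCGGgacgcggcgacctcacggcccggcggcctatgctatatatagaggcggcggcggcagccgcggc
The motifs were the AP-1 site TGANTCA, the cyclic AMP response element TGACGTCA, the TATA box TATAAA and the GC box GGGCGG. AREG held 1 cyclic AMP response element, 1 TATA box and 1 GC box, and EREG held 1 TATA box. HBEGF held 5 GC boxes, of which the last pair shares a base, EGFR held 2 and ERRFI1 held 1. Of 35116 windows of 250 bases in the same table, 6.57% held the AP-1 letters, 1.65% the cyclic AMP response element, 10.7% the TATA box and 42.6% the GC box. A match describes the letters and is not evidence of a bound factor.

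All 9 members passed the filter on low counts. With the extract, 7 of 9 were called in MDA-MB-231 (edgeR quasi-likelihood test, adjusted p under 0.05 over 14133 genes), 4 higher and 3 lower, against 65.8% of all genes tested (33.02% higher and 32.8% lower). In HCC1937, 7 of 9 were called, 2 higher and 5 lower, against 71.8% of all genes (32.7% higher and 39.1% lower). The members' shares lay near these backgrounds, so the direction and size of each gene carry the description that follows. HBEGF and TGFA rose in both lines, EREG, BTC and ERBB3 fell in both, and ERRFI1 rose in MDA-MB-231 and fell in HCC1937. Once transcript length and GC content were adjusted for, EREG was higher in HCC1937 and the ERRFI1 fall there was not called. The 9 had a median log2 change of 0.11 (MDA-MB-231) and -0.44 (HCC1937), beside 0 and -0.16 over all genes. Each log2 change of a gene is given ± its SE, which rests on a spread shared by all 4 groups. By group, the coefficient of variation between replicates estimated by edgeR was 0.296 in MDA-MB-231 with extract. In the other groups it was 0.0409 to 0.0449. An SE or adjusted p is therefore not the scatter of only the groups compared. The 5 members called in the same direction in both lines compare with 49.5% of all genes. The level ranges of the groups did not overlap for 6 members in MDA-MB-231 (67.6% of all genes) and 8 in HCC1937 (82.1%). In bulk RNA a lower level from fewer expressing cells and from less RNA per cell cannot be told apart.

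**Figure D1:**
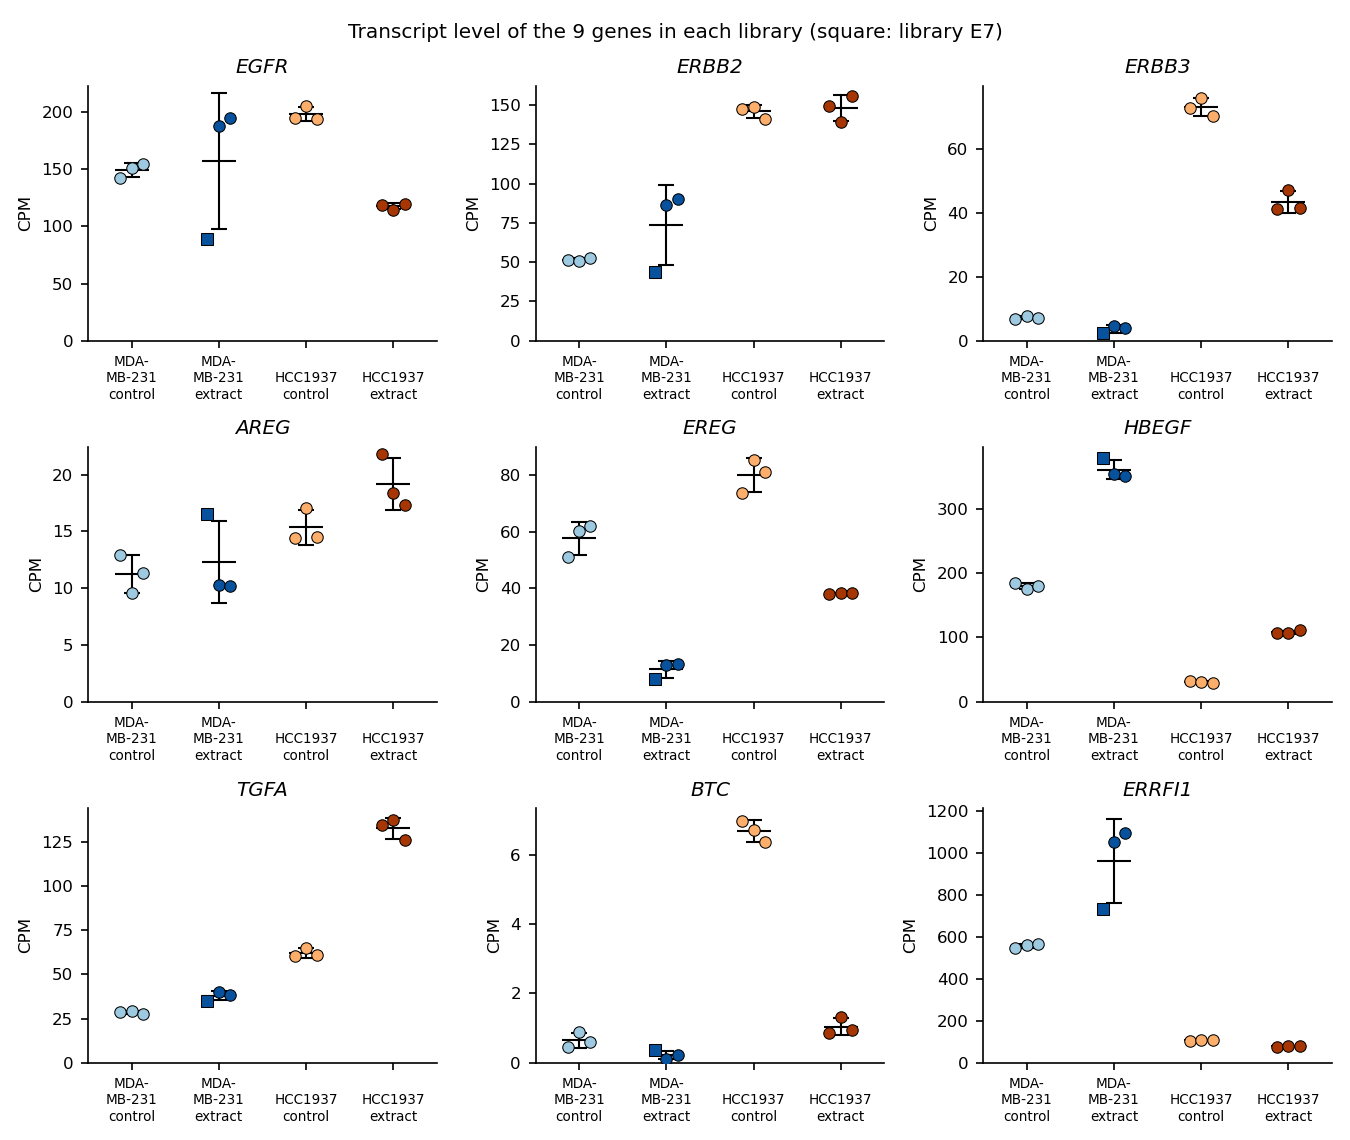
Level of each family member in CPM (vertical axes, starting at 0) in the 12 libraries, by group (horizontal axes); points are libraries, the square is E7, and bars give the mean and SD of 3 libraries. HBEGF and TGFA are higher with the extract in both lines, EREG is lower in both, and E7 lies below E8 and E9 for EGFR, ERBB2 and ERRFI1.

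EGFR (chr7:55019021-55211628, plus strand, GRCh38), the receptor for most of these ligands, fell in HCC1937 and was not called in MDA-MB-231. Its levels in MDA-MB-231 controls were 143 CPM in E1, 151 in E2 and 154 in E3, and with extract they were 89.1 CPM in E7, 188 in E8 and 195 in E9. E7 lay below every control and the other extract libraries lay above them, so the groups overlapped. The change over all libraries was 0.08 ± 0.22 on the log2 scale (adjusted p = 0.782), and without E7 it was 0.36 (adjusted p = 1.14e-08), a call. HCC1937 controls had 195 CPM in E25, 205 in E26 and 194 in E27, and extract libraries had 119 CPM in E31, 115 in E32 and 120.0 in E33. Every extract library was below every control, a 1.68-fold fall (log2 change -0.75 ± 0.22, adjusted p = 0.00872). The effect in HCC1937 minus that in MDA-MB-231 was -0.83 ± 0.31 on the log2 scale (adjusted p = 0.0608) with E7 and -1.09 (adjusted p = 3.15e-15) without it, so that library alone can decide the call on this difference, and adjustment for transcript length and GC content can as well. Across the 4 groups HCC1937 controls were highest and HCC1937 with extract were the lowest by mean, and the range of MDA-MB-231 with extract overlapped those of all 3 others. Its longest coding transcript, of 9821 bases, is the longest among the 9 members, and the antisense gene EGFR-AS1 overlaps the EGFR locus.

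ERBB2 (chr17:39687914-39730426, plus strand), the ligandless partner, rose in MDA-MB-231 by a margin that did not hold under most alternatives. Controls of that line had 51.4 CPM in E1, 50.8 in E2 and 52.4 in E3, and extract libraries had 44.03 CPM in E7, 86.6 in E8 and 90.1 in E9. E7 was again below all controls while E8 and E9 were above them. The rise was 1.43-fold (log2 change 0.52 ± 0.20, adjusted p = 0.0405), it was 0.78 (adjusted p = 1.86e-13) on the log2 scale without E7, and the call was lost in 16 of 22 alternatives. In HCC1937 the controls had 148 CPM in E25, 149 in E26 and 141 in E27 and the extract libraries 149.5 CPM in E31, 139.5 in E32 and 156 in E33. These ranges overlapped, and the change of 0.02 ± 0.20 on the log2 scale (adjusted p = 0.934) was not called. The line difference was -0.49 ± 0.28 on the log2 scale (adjusted p = 0.212), and without E7 it was -0.74 (adjusted p = 3.91e-10). HCC1937 controls exceeded MDA-MB-231 controls 2.83-fold (log2 change 1.502 ± 0.20, adjusted p = 3.46e-05). PGAP3 and MIEN1 overlap the ERBB2 locus on the other strand, and the use of strand in counting is not given in the sources used here.

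ERBB3 (chr12:56076799-56103505, plus strand), the neuregulin receptor, fell in both lines. MDA-MB-231 controls had 6.804 CPM in E1, 7.71 in E2 and 7.16 in E3 and extract libraries 2.28 CPM in E7, 4.64 in E8 and 4.03 in E9, with no overlap. The fall was 1.92-fold (log2 change -0.94 ± 0.19, adjusted p = 0.000801), and without E7 it was -0.72 (adjusted p = 1.73e-05) on the log2 scale. HCC1937 controls had 72.7 CPM in E25, 75.9 in E26 and 70.3 in E27 and extract libraries 41.2 CPM in E31, 47.2 in E32 and 41.6 in E33, again with no overlap. That fall was 1.68-fold (log2 change -0.75 ± 0.15, adjusted p = 0.000931). The difference between the falls, 0.19 ± 0.24 on the log2 scale (adjusted p = 0.592), was not called. HCC1937 controls were 10.1-fold above MDA-MB-231 controls (log2 change 3.34 ± 0.17, adjusted p = 8.46e-09), and the 4 groups followed the order HCC1937 control, HCC1937 extract, MDA-MB-231 control and MDA-MB-231 extract without overlap.

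HBEGF (chr5:140332843-140346631, minus strand), the heparin-binding EGF-like ligand, rose in both lines and rose further in HCC1937. Levels in MDA-MB-231 went from 185 CPM in E1, 176 in E2 and 181 in E3 to 379 CPM in E7, 354 in E8 and 350.5 in E9. E7 did not stand apart here, and all 3 extract libraries lay above all controls. The rise was 2.00-fold (log2 change 1.001 ± 0.07, adjusted p = 1.61e-07), and without E7 it was 0.97 (adjusted p = 3.32e-18) on the log2 scale. HCC1937 went from 31.6 CPM in E25, 30.5 in E26 and 29.1 in E27 to 106 CPM in E31, 107 in E32 and 111 in E33. That was a 3.56-fold rise (log2 change 1.83 ± 0.07, adjusted p = 2.47e-09), and the line difference was called at 0.83 ± 0.10 on the log2 scale (adjusted p = 8.29e-05). HCC1937 started 5.93-fold below MDA-MB-231 (log2 change -2.57 ± 0.07, adjusted p = 7.41e-11), so that its extract group stayed below the MDA-MB-231 controls.

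TGFA (chr2:70447280-70554193, minus strand), a high-affinity EGFR ligand, followed the same direction. MDA-MB-231 controls had 28.8 CPM in E1, 28.98 in E2 and 27.5 in E3 and extract libraries 35.00 CPM in E7, 40.1 in E8 and 38.2 in E9, all above the controls. The rise was 1.33-fold (log2 change 0.41 ± 0.08, adjusted p = 0.000749), and without E7 it was 0.47 (adjusted p = 2.27e-07) on the log2 scale. HCC1937 controls had 60.1 CPM in E25, 65.1 in E26 and 60.7 in E27 and extract libraries 134 CPM in E31, 137 in E32 and 126 in E33. This was a 2.14-fold rise (log2 change 1.096 ± 0.08, adjusted p = 1.65e-07), with a called line difference of 0.68 ± 0.11 on the log2 scale (adjusted p = 0.000795). The groups did not overlap, with HCC1937 extract highest, then HCC1937 control, MDA-MB-231 extract and MDA-MB-231 control.

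EREG (chr4:74365143-74388751, plus strand), epiregulin, which binds EGFR, fell in both lines and most in MDA-MB-231. Controls of that line had 50.98 CPM in E1, 60.2 in E2 and 61.9 in E3 and extract libraries 8.04 CPM in E7, 13.01 in E8 and 13.3 in E9. All 3 extract libraries lay far below the lowest control, and E7 was the lowest of them. The fall was 4.99-fold (log2 change -2.32 ± 0.16, adjusted p = 1.91e-07), and without E7 it was -2.13 (adjusted p = 3.09e-18) on the log2 scale. HCC1937 went from 73.6 CPM in E25, 85.5 in E26 and 80.9 in E27 to 38.1 CPM in E31, 38.3 in E32 and 38.5 in E33, the extract libraries having an SD of only 0.176 CPM. The fall was 2.09-fold (log2 change -1.06 ± 0.15, adjusted p = 5.72e-05). The line difference was called at 1.26 ± 0.22 on the log2 scale (adjusted p = 0.00118), the fall being smaller in HCC1937. EREG is the member whose value moved most, of the 9, when length and GC content were adjusted for.

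BTC (chr4:74744759-74794686, minus strand), betacellulin, fell in both lines from low levels. HCC1937 controls had 6.99 CPM in E25, 6.73 in E26 and 6.36 in E27 and extract libraries 0.8500 CPM in E31, 1.33 in E32 and 0.943 in E33, or 567 and 79 counts over the groups. That was a 6.42-fold fall (log2 change -2.68 ± 0.26, adjusted p = 1.87e-06). MDA-MB-231 controls had 0.444 CPM in E1, 0.882 in E2 and 0.612 in E3 and extract libraries 0.356 CPM in E7, 0.115 in E8 and 0.224 in E9, or 38 and 13 counts over the groups. The groups did not overlap, but these levels sit near the 3-count limit of a library, and the fitted change was -1.57 ± 0.43 on the log2 scale (adjusted p = 0.00637). Without E7, whose BTC level was the highest of the extract libraries, it was -1.91 (adjusted p = 0.00255). HCC1937 controls stood 10.4-fold above MDA-MB-231 controls (log2 change 3.38 ± 0.28, adjusted p = 4.95e-07).

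AREG (chr4:74445134-74455009, plus strand), amphiregulin, was not called with extract in either line. MDA-MB-231 controls had 12.9 CPM in E1, 9.59 in E2 and 11.3 in E3 and extract libraries 16.5 CPM in E7, 10.3 in E8 and 10.2 in E9. Only E7 exceeded the controls, and E8 and E9 lay among them. The change was 0.11 ± 0.19 on the log2 scale (adjusted p = 0.628), turning to -0.13 (adjusted p = 0.376) without E7. HCC1937 controls had 14.4 CPM in E25, 17.1 in E26 and 14.5 in E27 and extract libraries 21.8 CPM in E31, 18.4 in E32 and 17.4 in E33, which did not overlap. The change there was 0.32 ± 0.18 on the log2 scale (adjusted p = 0.134). Without E7, which also enters the shared estimate of spread, it was 0.34 (adjusted p = 0.00381), a call. EPGN, EREG, AREG and BTC lie in that order within 486 kb of chromosome 4 (74308473 to 74794686). Of these neighbours EPGN, EREG and BTC fell in both lines, EREG in HCC1937 only before adjustment for length and GC content. Among all genes, 49.5% were called in the same direction in both lines.

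ERRFI1 (chr1:8004404-8026308, minus strand), the feedback inhibitor, moved in opposite directions. MDA-MB-231 controls had 548 CPM in E1, 562 in E2 and 567 in E3 and extract libraries 732 CPM in E7, 1054 in E8 and 1097 in E9. E7 was the lowest extract library and still above every control. The rise was 1.72-fold (log2 change 0.78 ± 0.13, adjusted p = 0.000205), and without E7 it was 0.95 (adjusted p = 2.69e-19) on the log2 scale. HCC1937 controls had 102 CPM in E25, 108 in E26 and 110.1 in E27 and extract libraries 76.1 CPM in E31, 78.4 in E32 and 80.8 in E33, without overlap. The fall was 1.36-fold (log2 change -0.44 ± 0.13, adjusted p = 0.00882). The line difference was called at -1.22 ± 0.18 on the log2 scale (adjusted p = 0.00043). ERRFI1 was also 5.24-fold lower in HCC1937 controls than in MDA-MB-231 controls (log2 change -2.39 ± 0.13, adjusted p = 1.57e-08). The antisense gene AL034417.4 overlaps its locus.

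The change with extract was related to transcript length over all genes, and the members span the range. Among genes whose longest coding transcript was at most 2 kb, the median log2 change reached 0.57 (MDA-MB-231) and 0.56 (HCC1937), and among those over 8 kb it was -0.97 and -1.21. Without E7 the MDA-MB-231 medians were 0.28 and -0.81. A fit with an offset for length and GC content, a smooth surface per library over both properties, was set beside the main fit for each member. HBEGF kept its rises, at 0.43 (adjusted p = 9.63e-06) in MDA-MB-231 and 1.21 (adjusted p = 2.1e-09) in HCC1937, and TGFA kept its own, at 0.50 (adjusted p = 1.81e-05) and 1.33 (adjusted p = 2.99e-09). EREG, whose transcript is the lowest in GC of the members at 36.1%, still fell in MDA-MB-231, by less, at -0.84 (adjusted p = 0.000309). In HCC1937 EREG turned to a rise of 0.55 (adjusted p = 0.00336), so its direction there depends on this choice.

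The offset also moved calls on 5 further values. EGFR in MDA-MB-231 became a rise of 0.44 (adjusted p = 0.000208), and ERBB2 in HCC1937 a fall at -0.49 (adjusted p = 0.000385). AREG in MDA-MB-231 became a fall at -0.38 (adjusted p = 0.0209). ERBB2 in MDA-MB-231 lost its call, at 0.20 (adjusted p = 0.0797), and so did ERRFI1 in HCC1937, at -0.01 (adjusted p = 0.953). ERBB3 remained lower in both lines, at -1.19 (adjusted p = 9.38e-07) and -1.06 (adjusted p = 1.6e-07), and BTC at -1.12 (adjusted p = 0.0344) and -1.86 (adjusted p = 1.58e-05). All 4 called differences between the lines were called with the offset as well: EREG at 1.396 (adjusted p = 0.000179), HBEGF at 0.79 (adjusted p = 4.72e-06), TGFA at 0.83 (adjusted p = 1.32e-05) and ERRFI1 at -0.95 (adjusted p = 0.0016). The differences of EGFR and ERBB2 gained a call, at -0.83 (adjusted p = 5.59e-05) and -0.68 (adjusted p = 0.00116). The EGFR fall in HCC1937 kept its call but was smaller with the offset than in the main fit.

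**Figure D2:**
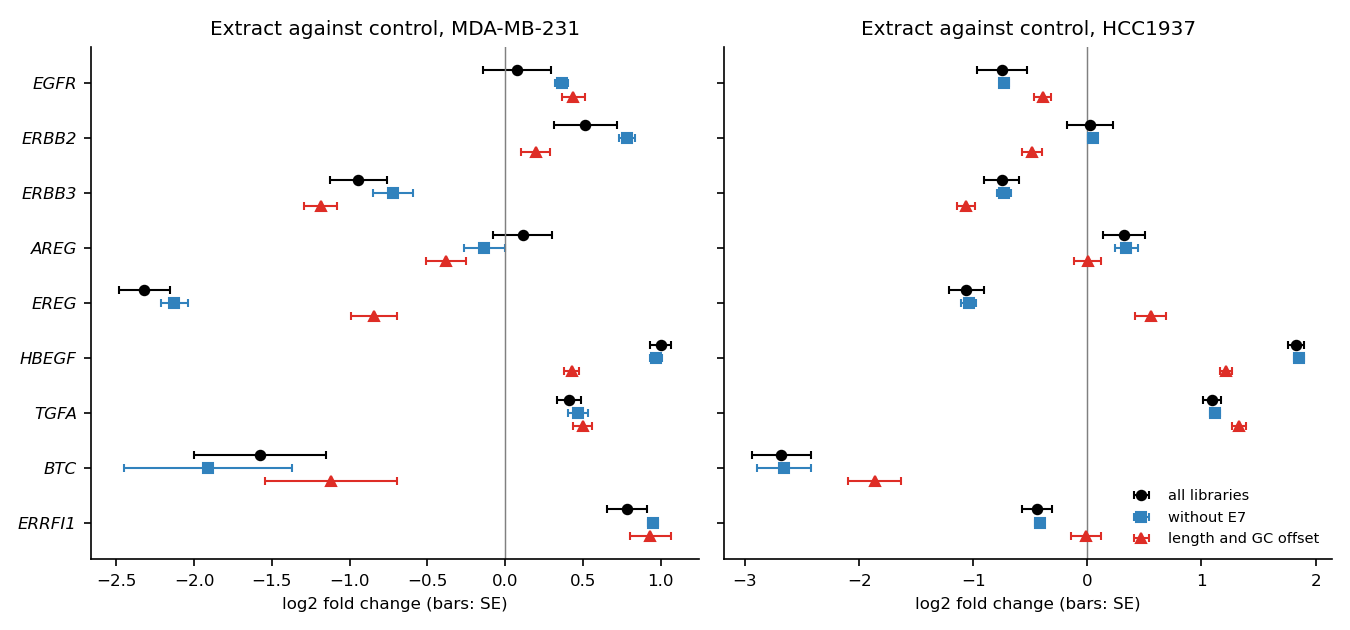
Log2 fold change with extract (horizontal axes, with SE bars) for the 9 members in MDA-MB-231 and HCC1937, from all libraries (circles), without E7 (squares) and with the length and GC offset (triangles). HBEGF and TGFA lie right of 0 and BTC and ERBB3 left of 0 under all 3 settings in both lines, while EREG in HCC1937 crosses from -1.06 to 0.55 with the offset.

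**Figure D3:**
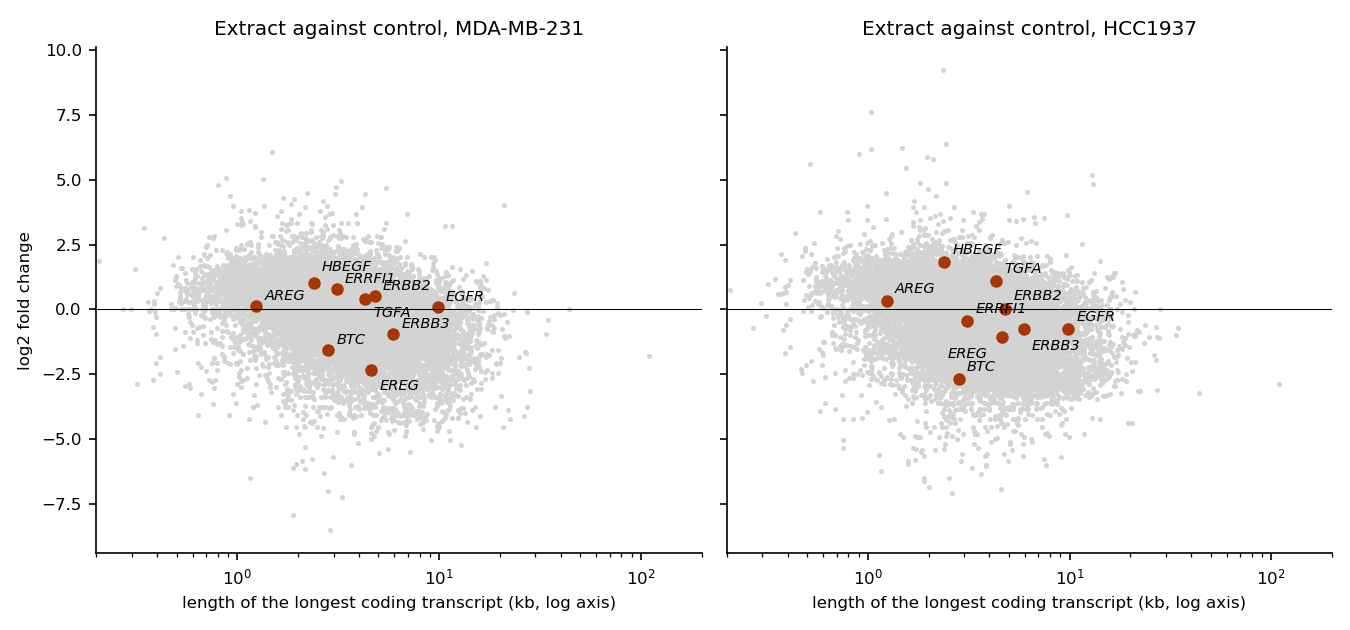
Log2 fold change with extract (vertical axes) against the length of the longest coding transcript in kilobases (horizontal log axes) for 14054 genes in grey and the 9 members in red, by line. Longer transcripts lie lower in both lines, and the members run from AREG at 1240 bases to EGFR at 9821 bases.

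The lines differed in most of the family before any extract, as they did in most genes tested. In controls 8 of 9 members were called between HCC1937 and MDA-MB-231, 6 higher and 2 lower in HCC1937, against 75.3% of all genes (38.7% higher and 36.7% lower), and the ranges did not overlap for any of the 9 (88.3% of all genes). ERBB3 and BTC showed the highest ratios in favour of HCC1937 among the members, and HBEGF and ERRFI1 were the members lower there. TGFA was 2.18-fold higher (log2 change 1.12 ± 0.08, adjusted p = 1.2e-07), EREG 1.39-fold (log2 change 0.47 ± 0.15, adjusted p = 0.0138) and AREG 1.36-fold (log2 change 0.44 ± 0.19, adjusted p = 0.0487). The AREG call was lost in 13 of 22 alternatives. EGFR was 1.33-fold higher without a call (log2 change 0.41 ± 0.22, adjusted p = 0.108), and without E7 its adjusted p was 5.98e-10. E7 is in neither control group and enters that value only through the shared fit.

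With extract in both lines, 8 of 9 members were again called, 6 higher and 2 lower in HCC1937, against 73.8% of all genes (34.1% higher and 39.7% lower). Ranges did not overlap for 8 of the 9, against 72.3% of all genes. ERRFI1 was 12.3-fold lower in HCC1937 (log2 change -3.62 ± 0.14, adjusted p = 8.87e-10), compared with 5.24-fold in controls. HBEGF was 3.34-fold lower (log2 change -1.74 ± 0.07, adjusted p = 1.12e-09), against 5.93-fold in controls. EREG was 3.31-fold higher (log2 change 1.73 ± 0.16, adjusted p = 1.3e-06), against 1.39-fold in controls. TGFA was 3.5-fold higher (log2 change 1.81 ± 0.08, adjusted p = 2.56e-09), ERBB3 11.5-fold (log2 change 3.53 ± 0.18, adjusted p = 8.41e-09) and BTC 4.82-fold (log2 change 2.27 ± 0.39, adjusted p = 0.00022). ERBB2 was 2.01-fold higher (log2 change 1.01 ± 0.20, adjusted p = 0.000751) and AREG 1.57-fold (log2 change 0.65 ± 0.19, adjusted p = 0.00771). EGFR, the member not called, was at -0.42 ± 0.22 on the log2 scale (adjusted p = 0.103). It was called lower without E7, at -0.72 (adjusted p = 5.95e-15), and with the offset, at -0.27 (adjusted p = 0.00511). Without E7 the counts were thus 6 higher and 3 lower, against 39.5% and 44.2% of all genes, and the other 8 kept direction and call. The change of the gap from controls to extract is the line difference of the extract effect. It was called for 4 of 9 members, EREG, HBEGF and TGFA towards HCC1937 and ERRFI1 towards MDA-MB-231, against 32.1% of all genes (11.5% higher and 20.6% lower in HCC1937). Without E7 these 4 differences were 1.09, 0.88, 0.65 and -1.37 on the log2 scale. In that setting 4 members were called higher and 3 lower, against 58.04% of all genes (24.7% higher and 33.3% lower).

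To set genes beside each other, levels were divided by the length of the longest coding transcript, giving CPM per kilobase. In MDA-MB-231 controls EGFR had 15.2 ± 0.617 and ERBB2 10.8 ± 0.177 CPM per kilobase (SD, n = 3), with ERBB3 at 1.22 ± 0.0775. EGFR thus made up 55.9% of the receptor level, ERBB2 39.6% and ERBB3 4.49%. With extract EGFR and ERBB2 overlapped, at 49.8% and 48.2%, and ERBB3 made up 1.95%. HCC1937 controls were led by ERBB2 at 30.5 ± 0.889 CPM per kilobase, 48.4% of the receptor level, before EGFR at 32.05% and ERBB3 at 19.6%. With extract ERBB2 reached 61.5% there, EGFR 23.9% and ERBB3 14.6%. The ERBB2 level itself was 146 ± 4.26 CPM in HCC1937 controls and 148 ± 8.26 CPM with extract, so by this scaling the larger share goes with lower EGFR and ERBB3. The steady level depends on the TMM scaling between libraries. Without it ERBB2 had 35.4 ± 1.07 CPM per kilobase in HCC1937 controls and 26.3 ± 1.39 with extract. With the length and GC offset its log2 change was -0.49.

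Among 11 ligands of the family, including those outside the 9 genes, HBEGF led in MDA-MB-231 and its share grew. It made up 66.5% of the ligand level per kilobase in controls and 84.7% with extract, while EREG went from 11.003% to 1.40%. AREG went from 7.99% to 5.53% and TGFA from 5.81% to 4.92%. By the longest transcript, HCC1937 controls had no such leader. EREG had 17.3 ± 1.30 CPM per kilobase, TGFA 14.4 ± 0.636, HBEGF 12.7 ± 0.532 and AREG 12.4 ± 1.22, the last pair overlapping. With extract HBEGF came first there too, its share going from 19.4% to 44.6%, TGFA from 21.9% to 30.2% and EREG from 26.4% to 8.16%. Per kilobase, ERRFI1 had 180.0 in MDA-MB-231 controls and 34.3 in HCC1937 controls. With the median length of a gene's coding transcripts in place of the longest, the order of genes changed. ERBB3 then came first among the receptors of HCC1937 controls, at 40.5%. TGFA led the ligands of HCC1937, with 52.6% in controls and 65.05% with extract, before EREG at 13.97% in controls and HBEGF at 21.2% with extract. In MDA-MB-231 HBEGF led by this length too, with 46.7% in controls and 66.95% with extract. These shares are thus descriptions that depend on which transcript is used.

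**Figure D4:**
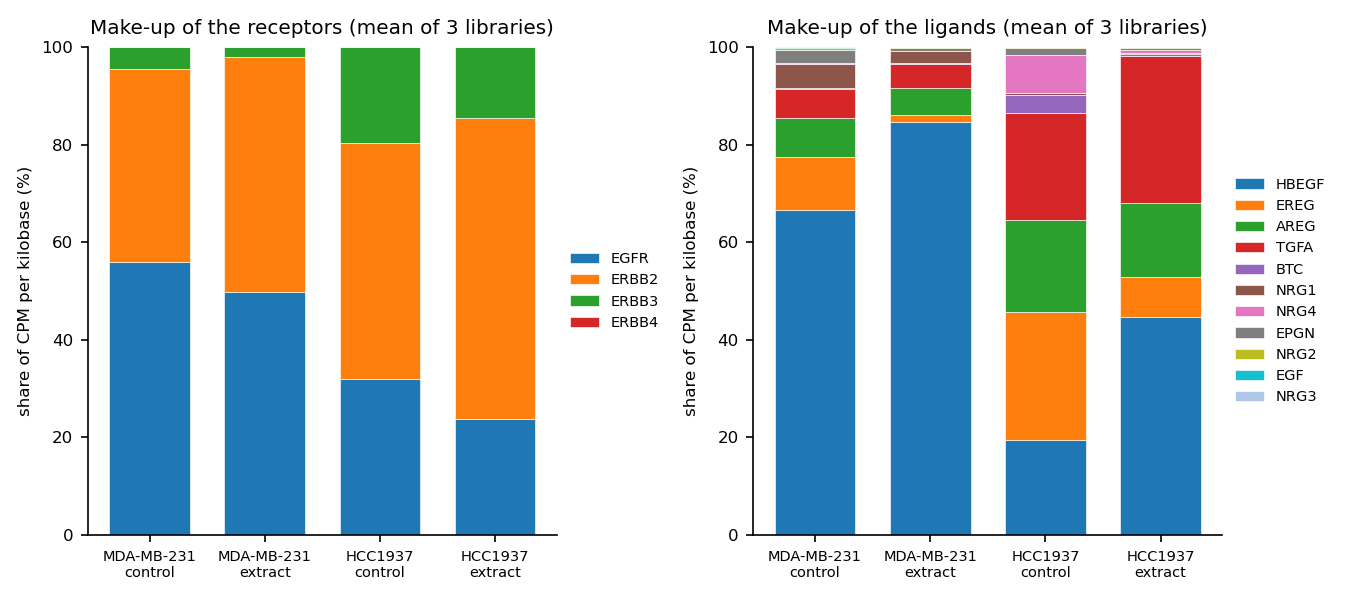
Share of each receptor (left) and each ligand (right) in the summed CPM per kilobase of the longest coding transcript of its class, in percent, as the mean of 3 libraries for the 4 groups on the horizontal axes. HBEGF takes 66.5% of the ligand level in control MDA-MB-231 and 84.7% in its extract group, and 19.4% and 44.6% in HCC1937.

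Other ligands and the fourth receptor completed the family. Of 7 genes listed, 5 passed the filter. In MDA-MB-231 none rose and 1 fell, and in HCC1937 1 rose and 2 fell, with medians of -0.67 and -1.22 beside medians of 0 and -0.16 over all genes, of which 65.8% and 71.8% were called. Leaving out E7, the genes that fell numbered 2 (MDA-MB-231) and 3 (HCC1937), against 37.2% and 43.3% of all genes. With the offset none rose and 2 fell in each line, with medians of -1.08 and -0.70. The shares of all genes called lower with the offset were 34.4% and 40.7%. EPGN, epigen, an EGFR ligand, fell in both lines (log2 change -1.61 ± 0.23, adjusted p = 6.38e-05 in MDA-MB-231 and log2 change -1.404 ± 0.27, adjusted p = 0.000519 in HCC1937). NRG4, a neuregulin that binds ERBB4, fell in HCC1937 from 5.95 ± 0.398 CPM to 0.818 ± 0.388 CPM (log2 change -2.85 ± 0.46, adjusted p = 0.00016). NRG2 rose in HCC1937 (log2 change 1.36 ± 0.52, adjusted p = 0.0333) from 21 to 49 counts over the group, and its line difference was 2.03 ± 0.66 on the log2 scale (adjusted p = 0.036). With the offset the NRG2 rise was not called, at 0.75 (adjusted p = 0.217). NRG1, a ligand of ERBB3, was not called in either line (-0.30 in MDA-MB-231 and -0.57 in HCC1937). It was lower in HCC1937 controls, at 1.72 ± 0.0064 CPM, than in MDA-MB-231 controls, at 32.97 ± 0.633 CPM (log2 change -4.25 ± 0.25, adjusted p = 2.64e-08). EGF itself had at most 40 counts over a group and no call with extract. ERBB4, with 15 counts in MDA-MB-231 controls and none elsewhere, and NRG3, with none, were not tested.

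The machinery of ligand release changed in a mixed way. Of 7 shedding genes, 1 rose and 4 fell in MDA-MB-231 (median -0.93, or -0.49 without E7), and 3 rose and 4 fell in HCC1937 (median -0.90). The 5 and 7 called of 7 stand beside 65.8% and 71.8% of all genes. Without E7, 2 rose and 5 fell in MDA-MB-231, against 37.3% and 37.2% of all genes. With the offset the medians were -0.39 and -0.21, beside -0.051 and -0.20 over all genes, so the HCC1937 median then lay at that of all genes. ADAM10, a protease that releases BTC and other ligands, fell in both lines (log2 change -1.88 ± 0.11, adjusted p = 4.02e-08 in MDA-MB-231 and log2 change -2.46 ± 0.11, adjusted p = 4.83e-09 in HCC1937). With the offset its changes were -0.10 (adjusted p = 0.156) and -0.70 (adjusted p = 2.4e-07), so the MDA-MB-231 call was lost. ADAM17, the main protease for TGFA, AREG and HBEGF, is named for that role, with its values known. It was at -0.93 ± 0.39 in MDA-MB-231 (adjusted p = 0.0539) and fell in HCC1937 (log2 change -0.999 ± 0.39, adjusted p = 0.0363), but with the offset it was called in neither line (-0.39 (adjusted p = 0.327) and -0.21 (adjusted p = 0.584)). Its MDA-MB-231 extract libraries ran from 11.4 to 53.4 CPM, all below the controls at 71.5 to 80.6 CPM. Without E7 ADAM17 was called in that line, as were all 7 shedding genes. ADAM9 fell in both lines (-1.83 and -2.56, or -1.01 and -1.47 with the offset). ADAM15 rose in both (0.75 and 1.24), by less with the offset (0.19 and 0.49).

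Downstream of the receptors, the 20 adaptors and RAS-MAPK genes were spread over both directions. In MDA-MB-231 10 rose and 9 fell (median 0.06), against 33.02% and 32.8% of all genes. In HCC1937 8 rose and 10 fell, against 32.7% and 39.1% of all genes, and the median of -0.16 was that of all genes. SOS1, the exchange factor that couples receptors to RAS, fell in both lines (log2 change -2.51 ± 0.11, adjusted p = 5.05e-09 in MDA-MB-231 and log2 change -2.54 ± 0.10, adjusted p = 3.17e-09 in HCC1937). With the offset these falls were smaller, at -0.78 (adjusted p = 6.23e-05) and -0.79 (adjusted p = 1.93e-05). SOS2, its paralog, fell in both lines (-2.104 and -2.52, or -1.08 and -1.32 with the offset). SHOC2, a RAF-activating scaffold, fell in both as well (-1.59 and -2.18, or -0.44 and -0.79). Of the RSK kinases below ERK, RPS6KA1 rose in both lines (0.79 and 1.39, or 0.30 and 0.67 with the offset). RPS6KA3 fell in both (-0.87 and -1.899), but with the offset it was 0.51 (adjusted p = 0.000165), a rise, in MDA-MB-231 and -0.45 (adjusted p = 0.000286) in HCC1937. In all, 4 of these genes fell in MDA-MB-231 with the offset, in place of 9, against 34.4% of all genes with the offset.

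Of 25 genes of receptor feedback and degradation, 6 rose and 12 fell in MDA-MB-231 (median -0.46, or -0.10 without E7), and 8 rose and 13 fell in HCC1937 (median -0.25). The 18 and 21 called stand beside 65.8% and 71.8% of all genes. USP8, a deubiquitinase that acts on internalised receptors, fell in MDA-MB-231 from 38.5 ± 0.4 CPM to 2.77 ± 0.656 CPM (log2 change -3.77 ± 0.13, adjusted p = 1.28e-09) and from 56.5 ± 0.836 CPM to 8.36 ± 0.453 CPM in HCC1937 (log2 change -2.76 ± 0.12, adjusted p = 4.12e-09). With the offset the USP8 falls were -2.198 and -1.196, both called. SOCS4, a SOCS-box protein linked to EGFR turnover, fell in both (-1.97 and -2.64). Its relative SOCS5 fell in both (-1.87 and -1.43), and with the offset it was -0.57 (adjusted p = 0.000557) and 0.04 (adjusted p = 0.772). EPN1, an endocytic adaptor, rose in both (0.93 and 1.303, or 1.46 and 1.61 with the offset). With the offset 8 genes of the list rose and 8 fell in MDA-MB-231, against 30.4% and 34.4% of all genes. In HCC1937 9 rose and 7 fell, against 27.2% and 40.7%. SOCS4 was then -0.02 (adjusted p = 0.859) in MDA-MB-231 and -0.71 (adjusted p = 1.96e-05) in HCC1937.

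Transcripts known to be induced by EGFR and MAPK signalling responded differently in the lines. In HCC1937 16 of 20 rose and 3 fell (median 1.36), against 32.7% and 39.1% of all genes. In MDA-MB-231 6 rose and 8 fell (median -0.24), against 33.02% and 32.8%. The test of the difference called 14 higher and 2 lower in HCC1937 (median 1.44), against 11.5% and 20.6%. Without E7 it called 15 higher and 4 lower, against 24.7% and 33.3% of all genes in that setting. In MDA-MB-231 DUSP6, an ERK phosphatase, had 448 ± 11.2 CPM in controls and 136 ± 2.57 CPM with extract (log2 change -1.72 ± 0.07, adjusted p = 4.41e-09). In HCC1937 it went from 10.3 ± 0.716 CPM to 44.3 ± 1.48 CPM (log2 change 2.105 ± 0.08, adjusted p = 1.84e-09), a line difference of 3.83 ± 0.11 on the log2 scale (adjusted p = 1.9e-09). FOS, an AP-1 subunit, had 268 ± 6.4 CPM in MDA-MB-231 controls, 25.9 ± 2.39 CPM with extract (log2 change -3.37 ± 0.10, adjusted p = 4.94e-10), and 30.7 ± 1.11 CPM and 76.1 ± 7.05 CPM in HCC1937 (log2 change 1.31 ± 0.09, adjusted p = 1.46e-07).

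ETV4, a transcription factor below ERK, IL11, a cytokine, and CCND1, cyclin D1, rose in both lines. ETV4 changed by 0.82 in MDA-MB-231 and 2.19 in HCC1937, a line difference of 1.37 ± 0.11 on the log2 scale (adjusted p = 5.72e-06). IL11 changed by 0.64 and 1.76, a difference of 1.13 ± 0.13 on the log2 scale (adjusted p = 6.94e-05). CCND1 changed by 1.37 and 0.55, a difference of -0.82 ± 0.12 on the log2 scale (adjusted p = 0.000316). With the offset the rises of ETV4 and IL11 in MDA-MB-231 were not called (0.13 (adjusted p = 0.0658) and -0.06 (adjusted p = 0.45)). EGR1, SPRED1 and EPHA4 were the 3 that fell in HCC1937, named after their values were seen. In controls 16 of the 20 were lower in HCC1937 than in MDA-MB-231 and 2 were higher (median -2.26), against 36.7% and 38.7% of all genes. With the offset 16 rose in HCC1937 and 1 fell (median 0.89), against 27.2% and 40.7% of all genes. In MDA-MB-231 5 rose and 11 fell with the offset, against 30.4% and 34.4%.

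**Figure D5:**
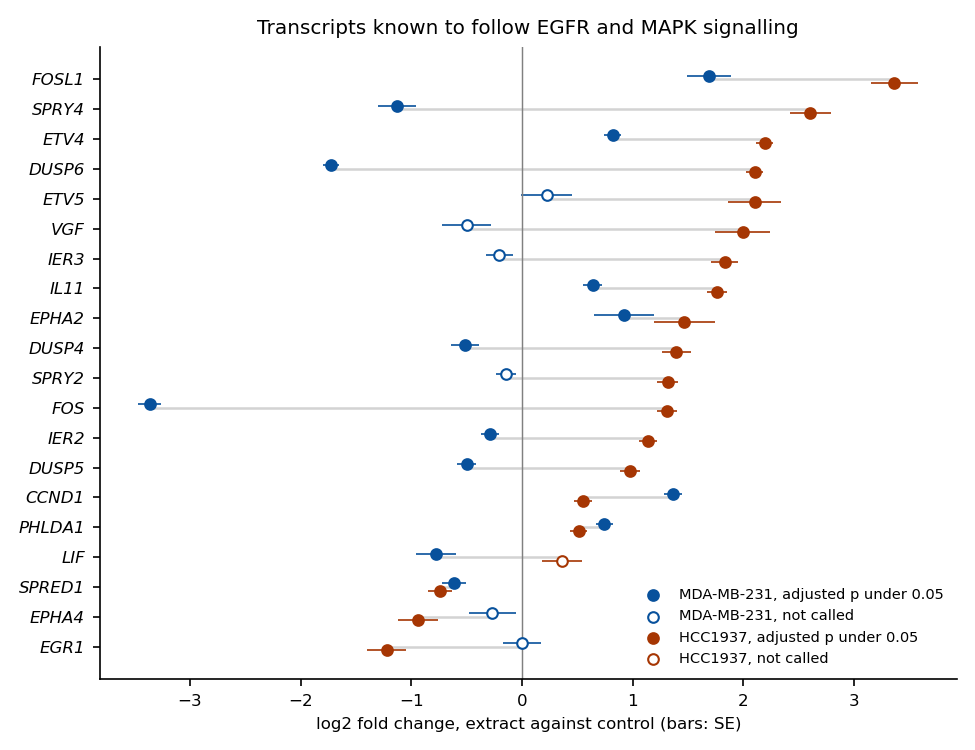
Log2 fold change with extract (horizontal axis, with SE bars) of 20 transcripts known to follow EGFR and MAPK signalling, in MDA-MB-231 (blue) and HCC1937 (orange); filled points have an adjusted p under 0.05 and grey lines join the lines' values. DUSP6 lies at -1.72 in MDA-MB-231 and 2.10 in HCC1937, and FOS at -3.37 and 1.31.

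Summed epithelial and mesenchymal-like markers both moved with the extract in both lines. The summed level of 6 luminal and general epithelial markers lay between 851 and 906 CPM in MDA-MB-231 controls and between 1559 and 2715 CPM with extract, with E7 at the top of KRT8 and KRT18, and CDH1 at 0 throughout. In HCC1937 that sum lay between 4061 and 4193 CPM in controls and between 10390.4 and 10525 CPM with extract, carried by KRT8 (2305 ± 48.9 CPM to 5720.4 ± 10.8 CPM) and KRT18 (1259 ± 20.6 CPM to 4258 ± 73.2 CPM). The sum does not describe each gene. The 6 had median log2 changes of 0.04 in MDA-MB-231 and 0.42 in HCC1937, or -0.41 and -0.40 with the offset. The 6 basal markers went from between 913 and 934 CPM to between 2308 and 2355 CPM in HCC1937, and from between 58.5 and 63.6 to between 25.5 and 43.2 CPM in MDA-MB-231. Their median log2 change in HCC1937 was 1.35, or 0.58 with the offset. In MDA-MB-231, where 3 of them had no reads in controls, it was 1.01, or 0.99 with the offset and 0 without E7. EPCAM and CDH1 were lower with extract in HCC1937, at 94.5 ± 2.17 CPM and 120.1 ± 4.06 CPM against 173 ± 7.75 CPM and 186 ± 5.34 CPM. The summed level of 6 mesenchymal-like markers was also higher with extract. It went from between 4235 and 4406 to between 4814 and 7021 CPM in MDA-MB-231. In HCC1937 it went from between 289 and 297 to between 691 and 702 CPM. By gene, the 5 that were tested had median log2 changes of -0.16 and -1.96, or -0.30 and -0.33 with the offset. Leukocyte markers other than CD68 were near 0, with PTPRC at most 27 counts over a group. Of 5 fibroblast markers DCN was at 0 in all libraries. Their summed level went from between 22.4 and 26.4 to between 4.48 and 9.35 CPM in MDA-MB-231, and from between 29.3 and 31.5 to between 6.63 and 8.19 CPM in HCC1937. COL1A1 carried most of it, and in HCC1937 LUM also went from 11.2 ± 0.297 CPM to 0.879 ± 0.617 CPM. The 5 endothelial markers summed to at most 4.46 CPM in MDA-MB-231. In HCC1937 they went from between 24.2 and 24.8 to between 17.8 and 20.1 CPM, with PECAM1 at 12.7 ± 0.698 CPM and CDH5 at 9.84 ± 0.682 CPM in controls. The part of these markers in the family's changes was not tested.

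For each member the most similar patterns over the 12 libraries were listed by the root mean square difference of centred log2 CPM, among 10828 genes. EGFR was closest to DIP2C (0.0904) and TP53BP2 (0.130), ERBB2 to TNKS1BP1 (0.0953) and PCNX3 (0.123), and ERBB3 to SERINC5 (0.138) and RHOV (0.177). HBEGF was closest to SLC29A1 (0.141) and CSRNP1 (0.167), TGFA to RNF26 (0.0952) and WIPI2 (0.106), and EREG to VAMP1 (0.148) and SMIM14 (0.213). AREG was closest to LGALS3 (0.136) and ERG28 (0.142), and ERRFI1 to ENC1 (0.187) and GPRASP2 (0.208). BTC had no pattern as near, the closest being TLCD2 (0.348) and FRK (0.366).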

How the data were processed

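The deposited table holds expected counts (estimated reads per gene, not scaled for depth), with 52.8% of values not whole at a tolerance of 1e-06. Per the submitters' processing notes, FastQC 0.12.1, fastp 0.23.4, Salmon 1.10.3, DESeq2, R 4.4.1 and GRCh38 were used. The annotation release, strand use and the summing to genes are left unstated by those notes. The labels' protocols name both poly-T beads and a stranded total RNA kit. Groups came from sample titles, since the cell line field counts upward from sample to sample.

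Counts were rounded and scaled by TMM, and 1 gene without symbol or reads was left out. Of 19516 genes, 14133 passed filterByExpr and entered one edgeR 4.0.16 quasi-likelihood fit of the 4 groups (R 4.3.3) with Benjamini-Hochberg adjustment over all of them, called below 0.05. The script was tested on simulated data. Alternatives were RLE and upper-quartile scaling, DESeq2 1.42.0, limma-voom 3.58.1, no or a stricter filter, robust fitting, the compared groups alone, each library left out, and a length and GC offset (mgcv 1.9.3, GENCODE 29, 99.4% of tested genes). The offset without E7 and lengths of APPRIS principal transcripts were added after seeing the data. Members and lists were chosen with earlier results of these data known. All members and other family genes are named, and of each other list up to 3 genes per line with the smallest unadjusted p. ADAM17 and 3 transcripts that fell in HCC1937 were named outside that rule, with their values known. The similar genes are the 2 nearest to each member, with a mean of at least 5 CPM and a prior count of 2. Promoter letters are from RefSeq (GRCh38.p14), which matched 8 of 9 members. Floors of 3 counts cover counting error only. A further check of line identity is not reported here.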

Additional observations from a re-analysis of the deposited data

Results flagged for a closer look

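For 4 of 9 members the extract effect differed between the lines by the test of the difference itself (edgeR quasi-likelihood, adjusted over 14133 genes). The same test called 32.1% of all genes. EREG fell less in HCC1937 than in MDA-MB-231, the effects differing by 1.26 on the log2 scale (adjusted p = 0.00118), though with the length and GC offset EREG rose in HCC1937, by 0.55. HBEGF rose more in HCC1937, by 0.83 (adjusted p = 8.29e-05), and so did TGFA, by 0.68 (adjusted p = 0.000795). ERRFI1 rose in MDA-MB-231 and fell in HCC1937, a difference of -1.22 (adjusted p = 0.00043), and with the offset its change in HCC1937 was -0.01 (adjusted p = 0.953). Each of these 4 differences between the lines kept its call and direction in all 21 alternatives that give one, although the direction within HCC1937 did not for EREG and ERRFI1. For these 4 genes, every extract library lay on the stated side of all controls of its line, in CPM without the offset. Such separation, in either direction, was common over all genes tested, at 67.6% (MDA-MB-231) and 82.1% (HCC1937), so it adds little. Dose and medium differed with the line and cannot be told apart from it.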

How the results depend on the processing

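Of 980 alternative values for the members over 5 comparisons, 914 kept direction and call, 32 lost the call, 20 gained one and 14 reversed, and for all of these the cause was not tested. Reversals mostly concerned values that were uncalled and near 0 in the main fit. A reversed value was counted as reversed even where it gained a call, as ERBB2 in HCC1937 and AREG in MDA-MB-231 did with the offset. EGFR in MDA-MB-231 was -0.0058 with limma-voom and ran from -0.10 to 0.36 when single libraries were left out. AREG in MDA-MB-231 was -0.38 with the offset, -0.33 with the offset without E7, and -0.13 to 0.23 over left-out libraries. ERBB2 in HCC1937 was -0.056 with upper-quartile scaling, -0.0046 with the stricter filter, -0.49 with the offset and -0.46 with the offset without E7. EREG in HCC1937, a called value, was 0.55 and 0.58 with the offset and the offset without E7, and ERRFI1 in HCC1937 was -0.01 with the offset and 0.019 with the offset without E7. The line difference of ERBB3 ran from -0.0082 to 0.42 over left-out libraries. EGF in MDA-MB-231 was 0.069 with limma-voom, 0.33 with the offset, 0.38 with the offset without E7, and -0.24 to 0.40 over left-out libraries. NRG1 was 0.30 and 0.012 in MDA-MB-231 and 0.13 and 0.15 in HCC1937 with the offset, with and without E7, and SOCS4 in MDA-MB-231 was 0.051 with the offset without E7.

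The test of the difference between the lines depended most on E7. It called 1630 genes higher and 2909 lower, against 3349 and 4583 with the offset without E7, and over left-out libraries the counts ran from 1340 to 3554 and from 2344 to 4780, the highest without E7. The 1 member called lower became 3 with the offset and 3 with the offset without E7, and 1 to 3 over left-out libraries. Of all genes, 20.6% were called lower in the main fit and 24.9% with the offset. That share was 32.1% with the offset without E7 and 33.3% in the main fit without E7. The median change of all genes in HCC1937 was -0.16, and it was -0.055 with DESeq2 and -0.24 with upper-quartile scaling. Of 108 levels per kilobase under other lengths or scaling, 54 moved by more than the spread between replicates. No paired analysis was possible because the groups share no replicate numbers. Having 3 libraries a group, BTC counts of 13 to 79 in 3 of the groups, and the offset's reliance on 1 transcript per gene limit precision.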
